A study of Rattus norvegicus with 6 samples.

Results

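Translation initiation and elongation factors were examined at the RNA level in rat neural stem/progenitor cells (NSPCs) cultured on 3 electroconductive carbon films. The genes were all rows of the count tables whose symbol begins with Eif1 to Eif6 or with Eef, apart from 4 rows for the Eif2ak kinases, which gave 58 of 17048 rows. Of these 58 genes, 40 encode initiation factors, 7 encode elongation factors, 2 encode forms of eIF5A, 3 encode the Eif4ebp inhibitors, and 6 carry the name of a factor but have another role. The symbol Eif4g1, for the main scaffold of the cap-binding complex, was not analysed here.

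Protein synthesis begins when eIF2 brings the initiator tRNA to the small ribosomal subunit, eIF3 holds that subunit, and the eIF4F complex recruits it to the capped end of an mRNA. The ribosome then moves along the message with eEF1A, which delivers each aminoacyl-tRNA, and eEF2, which drives translocation. The Eif4ebp proteins bind the cap-binding protein eIF4E and block assembly of eIF4F until mTOR phosphorylates them. Stem cells of the nervous system are known for a low rate of protein synthesis that rises as they enter differentiation, and many mRNAs of this machinery begin with a run of pyrimidines, the 5′ terminal oligopyrimidine (TOP) motif, through which mTOR controls their translation.

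The NSPCs were wild type, were isolated from the telencephalon of mid-gestation Sprague-Dawley rat embryos, and were expanded as spheres with EGF and bFGF. They were kept for 24 h in a medium that maintains stemness on films of carbon nanotubes and graphene oxide nanoribbons, which all carried poly-D-lysine and laminin. The paper set the poly-D-lysine dose by film to match the laminin bound, with less on Medium than on High and Low. For Medium, this dose and the conductivity cannot be told apart. The films were High (supraphysiological conductivity), Medium and Low (both of neural tissue-like conductivity), with 2 libraries each and no library from a plate without carbon. The question put to the family was how its initiation, elongation and inhibitor genes differed between the High film and the 2 films of lower conductivity.

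Total counts ran from 5124863 to 6213676 per library. Rows for ribosomal RNA took 26.1% and 38.4% of the counts in the High libraries (95% Wilson intervals 26.06 to 26.13 and 38.34 to 38.42), 7.27% and 13.04% in Medium (7.25 to 7.29 and 13.01 to 13.07) and 7.16% and 7.64% in Low (7.14 to 7.18 and 7.62 to 7.67). No batch or day of preparation was given, so film and preparation cannot be told apart. The labels do not say that the 2 libraries of a film came from separate cultures, so p-values measure the spread between these libraries, which may be technical. Of 9 NSPC markers, Msi1 and Hes5 had no count in any library. The sum of the other 7 was 2691 to 3006 CPM in High (counts scaled to the size of the library), 4289 to 4750 CPM in Medium and 3819 to 5038 CPM in Low. Vim alone held 1980 to 3680 CPM of it. Vim, Sox2, Nes and Slc1a3 were above both High libraries in every Medium and Low library, while Hes1 and Pax6 overlapped. Fabp7 was lower in Low (42.3 and 119 CPM) than in High (205 and 225 CPM), and its Medium libraries overlapped with High. Neuron markers summed to 31.0 to 83.4 CPM in High, 74.8 to 191 CPM in Medium and 140 to 241 CPM in Low, with 3 of 10 at 0 throughout, and oligodendrocyte lineage markers to 326 to 413, 556 to 639 and 619 to 748 CPM, with Sox10 at 0. Of the 639 CPM, in Medium replicate 1, Mog made up 129 CPM, and it had 0 counts in every other library. Astrocyte markers stayed at 72.8 CPM or less with 4 of 6 at 0, microglia markers at 7.10 CPM or less with 6 of 8 at 0, and meningeal and vascular markers reached 401 CPM in 1 Medium library with 6 of 10 at 0. The part of these cell type markers in the results for the translation factors was not tested, and in bulk RNA fewer cells of a type and less RNA per cell cannot be told apart.

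A run of pyrimidines at the start of the mRNA is the feature through which translation of TOP mRNAs is regulated, so the annotated start sites are shown first. Of the 9 genes of the family taken as TOP mRNAs (Eef1a1, Eef1b2, Eef1d, Eef1g, Eef2, Eif3e, Eif3f, Eif3h and Eif4b), 5 had an entry in the RefSeq table of 33469 rat promoters (build GRCr8). Each line gives 10 bases before the annotated start and 20 bases from it, 5′ to 3′ on the coding strand, with the longest unbroken run of C and T in capitals.
Eef1a1 (chr8:88225050-88225079, minus strand): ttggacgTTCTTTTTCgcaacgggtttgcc
Eef1a1l1 (chrX:153525370-153525399, plus strand): aagaatcaacagaaccgCTTTTTCgcaacg
Eef1b2 (chr9:72074081-72074110, plus strand): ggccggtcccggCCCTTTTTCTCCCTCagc
Eef1g (chr1:215289805-215289834, plus strand): CTgcggaatcaccatggcggctggggtaag
Eef2 (chr7:9189219-9189248, minus strand): ccgcagccgccgccatcgtcggcgcgCTTC
Eif3f (chr1:172369052-172369081, plus strand): cccttccgttctagCCTCTCTCTTTCTCgg

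The run of Eef1b2 was 15 bases long and that of Eif3f 14, and only 0.699% and 0.935% of all promoter entries held a run as long in the same window on the coding strand. The run of Eef1a1 was 9 bases long, and 6.82% of entries had one as long. The windows of Eef1g and Eef2 held runs of 2 and 4 bases, found in 98.6% and 66.7% of entries, which says only that no longer run lies in these 30 letters around the annotated start. None of the printed runs begins at the first annotated base, and only that of Eef1a1 spans it. Where the mRNAs of these cells begin was not measured. Eef1a1l1 is not a row of the count tables and is shown because RefSeq names it as a copy of Eef1a1. Its window shares the 13 bases CTTTTTCGCAACG with that of Eef1a1. RefSeq names 22 copies of Eef1a1, 16 of Eef1g, 11 of Eif5, 10 of Eif4e and 9 of Eif4a1, mostly pseudogenes. Reads with several alignments were counted here, so the counts of these genes can hold reads of a copy or have lost reads to one.

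No translation factor passed the test in any comparison of films. Of the 58 genes, 56 had enough counts to be tested, and 0 of 56 had an adjusted p below 0.05 (edgeR quasi-likelihood test, Benjamini-Hochberg over 7729 rows) for Low and Medium against High, beside 0.129% of all rows tested. The count was also 0 for Low against High (0.0518% of all rows), Medium against High (0.0129%) and Low against Medium (0%). At an unadjusted p below 0.05, the same test gave 4 genes for Low and Medium against High (Eif3f, Eef2kmt, Eif3j and Eefsec), or 7.14% of members beside 5.50% of all rows. All 4 had a fitted log2 fold change below 0, and 2.81% of all rows passed in that direction. Eif3f and Eefsec lay below High in every Medium and Low library, but Eef2kmt and Eif3j overlapped with High. Eef2kmt had 0 counts in both Medium libraries and was above High in both Low libraries. The same test gave 2 for Low against High (3.57% beside 4.27%), 3 for Medium against High (5.36% beside 4.04%) and 2 for Low against Medium (3.57% beside 1.51%). With DESeq2 the adjusted counts were 1 gene (Eif3f, 1.79% of members beside 4.54% of all rows), 1 (Eif3j, beside 3.77%), 2 (Eif3f and Eef2kmt, beside 3.97%) and 2 (Eef2kmt and Eif2d, beside 1.53%), and with limma-voom they were 0 in all 4 comparisons. The comparisons against High share its 2 libraries.

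Together the 58 genes held 1.66% and 1.40% of all counts in the High libraries (Wilson intervals 1.65 to 1.67 and 1.39 to 1.41), 1.88% and 1.88% in Medium (1.86 to 1.89 and 1.87 to 1.89) and 1.88% and 1.95% in Low (1.86 to 1.89 and 1.94 to 1.96). Measured against the counts outside the ribosomal RNA rows, the order turned round, to 2.25% and 2.27% in High (2.23 to 2.26 and 2.26 to 2.29), 2.02% and 2.16% in Medium (2.01 to 2.04 and 2.15 to 2.17) and 2.02% and 2.11% in Low (2.01 to 2.03 and 2.10 to 2.12). These intervals cover counting error only. After TMM normalization, the scale of all CPM values given here for genes and gene groups, the summed level was 18425 ± 458 CPM on the High film, 17351 ± 1209 on Medium and 17373 ± 693 on Low (mean ± SD, n = 2 libraries each).

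**Figure D1:**
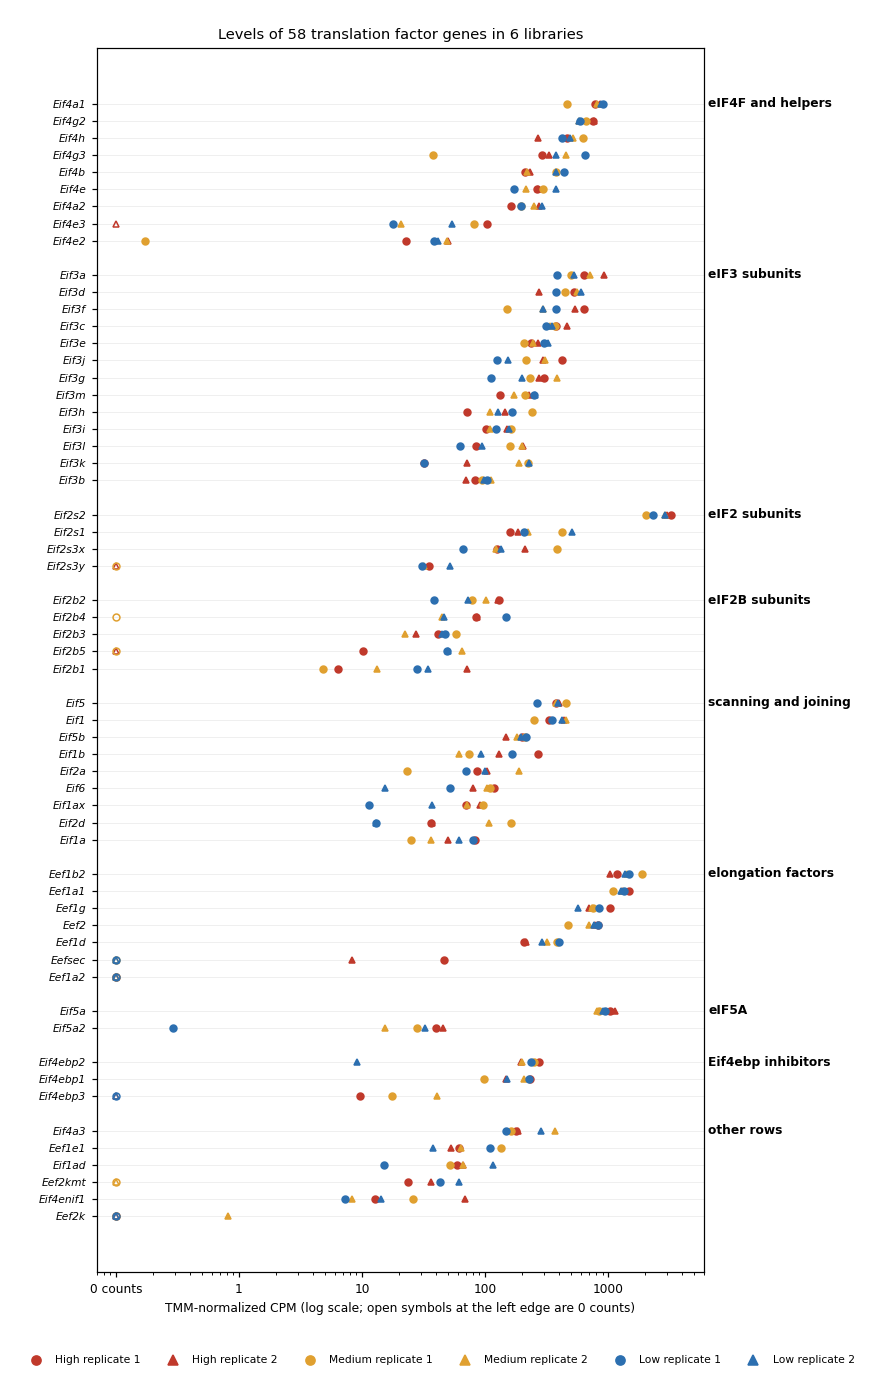
The level of each of the 58 genes in the 6 libraries, as TMM-normalized CPM on a log axis, with genes grouped by role (red, High; orange, Medium; blue, Low; circles, replicate 1; triangles, replicate 2; open symbols at the left edge, 0 counts). The symbols of Eef1a1, between 1085 and 1467 CPM, lie close together, while those of low genes such as Eif2b5, from 0 to 65.0 CPM, spread over the whole axis.

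Eef1a1, which encodes eEF1A, was at 1467 and 1294 CPM in High, 1085 and 1314 CPM in Medium and 1342 and 1272 CPM in Low. The groups overlapped, with a log2 fold change for Low and Medium against High of −0.14 ± 0.20 (SE), which turned to 0.25 with library sizes in place of TMM. Eef1a2, the form that replaces eEF1A1 in mature neurons and muscle, had 0 counts in all 6 libraries, and 3 counts would have been 0.435 to 0.716 CPM depending on the library.

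The exchange factor of eEF1A, which reloads it with GTP, has its own genes, and 0 of the 3 passed the test. Eef1b2, the eEF1Bα subunit, was at 1183 and 1034 CPM in High, 1877 and 1416 CPM in Medium and 1468 and 1358 CPM in Low. Eef1d, the eEF1Bδ subunit, was at 206 and 213 CPM in High, 386 and 320 CPM in Medium and 395 and 291 CPM in Low. For both genes the 4 Medium and Low libraries lay above both High libraries. The log2 fold changes were 0.46 ± 0.21 for Eef1b2 and 0.73 ± 0.34 for Eef1d, each with an adjusted p of 0.80 in edgeR. Eef1g, the eEF1Bγ subunit that anchors the complex, was at 1038 and 698 CPM in High, 755 and 739 CPM in Medium and 838 and 563 CPM in Low, so its groups overlapped.

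Ratios of genes counted in the same library do not depend on the scaling between libraries. The ratio of Eef1b2 to Eef1a1 counts was 0.806 and 0.800 on the High film, 1.73 and 1.08 on Medium and 1.09 and 1.07 on Low, and that of Eef1d to Eef1a1 was 0.140 and 0.165, 0.355 and 0.243, and 0.295 and 0.228. In both cases the 4 libraries of lower conductivity were above both High libraries, with the exact two-sided permutation test unable to go below p = 0.133 for 4 libraries against 2. The ratio of Eef1g to Eef1a1 ran from 0.539 to 0.707 in High and from 0.443 to 0.696 in the other films, and that of Eef2 to Eef1a1 from 0.560 to 0.601 and from 0.431 to 0.616, so both overlapped. These pairs were chosen after the values were seen, and the 3′ counts are not divided by length, so a ratio is compared between libraries and is not a ratio of molecules.

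**Figure D2:**
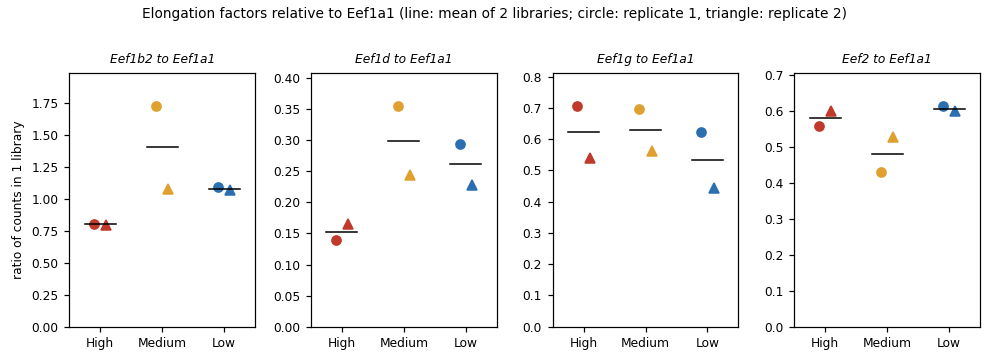
Ratio of the counts of Eef1b2, Eef1d, Eef1g and Eef2 to those of Eef1a1 in each library, by film (circle, replicate 1; triangle, replicate 2; line, mean of 2 libraries; each vertical axis starts at 0). In the panels of Eef1b2 and Eef1d all Medium and Low points are above the High points, at 1.07 or more against 0.806 or less and at 0.228 or more against 0.165 or less.

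Eef2, which encodes the translocase, was at 822 and 777 CPM in High, 468 and 695 CPM in Medium and 826 and 763 CPM in Low. Both Medium libraries were below the other 4, with a log2 fold change for Medium against High of −0.46 ± 0.29. Its kinase Eef2k, which halts elongation by phosphorylating eEF2, had 5 counts in Medium replicate 2 and 0 in the other 5 libraries. Eefsec, the factor that delivers selenocysteine, had 224 and 35 counts in the High libraries (46.2 and 8.35 CPM) and 0 counts in all 4 others. Against a floor of 3 counts per library it was at least 54.1-fold lower in Medium and at least 58.1-fold lower in Low, or at least 16.6-fold and 17.8-fold from High replicate 2 alone, with an adjusted p of 0.80 in edgeR. Its 2 High libraries differed by 5.53-fold from each other.

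eIF5A, which relieves stalled ribosomes and carries the hypusine modification, is encoded by 2 genes. Eif5a was at 1033 and 1128 CPM in High, 834 and 815 CPM in Medium and 939 and 911 CPM in Low. The 4 libraries of lower conductivity lay below both High libraries, with a log2 fold change of −0.31 ± 0.21 and an adjusted p of 0.80 in edgeR, but the sign turned when library sizes were used without TMM, to 0.09. Eif5a2 was at 40.0 and 45.1 CPM in High, 27.8 and 15.4 CPM in Medium and 0.290 and 32.4 CPM in Low, also below High in each, with 2 counts in Low replicate 1.

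Among the genes of the cap-binding complex and its helpers, 4 of 9 had a log2 fold change above 0 for Low and Medium against High and 5 below, and 0 of 9 passed the test. Eif4a1, the RNA helicase of eIF4F, was at 785 and 862 CPM in High, 462 and 814 CPM in Medium and 908 and 881 CPM in Low. The groups overlapped, with both Medium libraries below the higher High library and both Low libraries above it, and the log2 fold change was −0.12 ± 0.27, turning to 0.27 with library sizes alone. Its paralog Eif4a2 was at 162 to 291 CPM with every film overlapping, and the ratio of Eif4a1 to Eif4a2 ran from 2.35 to 4.85 with no separation. Eif4b and Eif4h, which stimulate the helicase, were at 210 and 233 CPM and at 467 and 268 CPM in High. In Medium they were at 375 and 219 CPM and at 620 and 519 CPM, and in Low at 435 and 376 CPM and at 423 and 488 CPM. Both Low libraries of Eif4b and both Medium libraries of Eif4h were above the High libraries, with log2 fold changes in those comparisons of 0.88 ± 0.40 and 0.63 ± 0.36.

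Eif4e, which binds the cap, was at 262 and 270 CPM in High, 297 and 214 CPM in Medium and 171 and 373 CPM in Low, with a log2 fold change of −0.01 ± 0.42. Eif4e2, a cap-binding protein that represses translation, was at 22.9 and 49.6 CPM in High, 0.172 and 49.4 CPM in Medium and 38.7 and 41.1 CPM in Low, the Medium value of 0.172 CPM being 1 count. Eif4g2, which drives initiation without eIF4E, was at 754 and 770 CPM in High, 663 and 577 CPM in Medium and 587 and 575 CPM in Low, below High in all 4 libraries. Its log2 fold change was −0.34 ± 0.23, and 0.05 with library sizes alone. The scaffold gene Eif4g3 was at 290 and 329 CPM in High, 37.6 and 452 CPM in Medium and 653 and 373 CPM in Low, and the 2 Medium libraries differed by 12.04-fold.

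All 3 Eif4ebp inhibitors overlapped between High and the 4 pooled libraries of lower conductivity, and 0 of 3 passed the test. Of all rows tested, 18.2% lay apart in that comparison. Eif4ebp1 was at 232 and 148 CPM in High, 97.7 and 206 CPM in Medium and 226 and 150 CPM in Low. Eif4ebp2, the form best known in the brain, was at 273 and 194 CPM in High, 248 and 199 CPM in Medium and 234 and 9.06 CPM in Low. Its 2 Low libraries differed by 25.8-fold. Without Low replicate 1 the log2 fold change went from −0.50 ± 0.87 to −2.37, with an adjusted p of 0.030 in edgeR, so its value rests on which Low library is used.

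Eif4ebp3 had counts in High replicate 1 (9.68 CPM) and in both Medium libraries (17.7 and 40.7 CPM), and 0 counts in High replicate 2 and in both Low libraries. Both Medium libraries were thus above both High libraries. Against the floor of 3 counts, the level on Low was at least 62.2-fold below the Medium mean and at least 37.7-fold below the lower Medium library, and no bound against High is given because 1 High library was also at 0. The ratio of Eif4e to Eif4ebp1, the gene of the cap-binding protein to that of an inhibitor that binds it, was 1.13 and 1.82 on the High film, 3.04 and 1.03 on Medium and 0.753 and 2.49 on Low. Replicates of a film differed here by as much as the films did.

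eIF3 is the largest initiation factor, and all 13 of its genes in the tables were tested. Eif3f, a subunit with an MPN domain, was at 637 and 540 CPM in High, 150 and 295 CPM in Medium and 376 and 294 CPM in Low. Every library of lower conductivity lay below both High libraries, also with library sizes alone. The log2 fold change was −1.11 ± 0.34, the unadjusted p 0.0081 and the adjusted p 0.62 in edgeR. DESeq2 gave −1.17 with an adjusted p of 0.012, and leaving out Medium replicate 2 gave −1.41 with an adjusted p of 0.026 in edgeR. Eif3f and Eef1b2 have the longest pyrimidine runs of the start windows printed above, and on the Medium film the mean of Eif3f was at its lowest (223 ± 102 CPM) and that of Eef1b2 at its highest (1647 ± 326 CPM, SD, n = 2). Whether the runs have a part in these RNA levels was not tested.

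Eif3j, a loosely bound subunit that works at the decoding site, was at 418 and 297 CPM in High, 216 and 308 CPM in Medium and 125 and 155 CPM in Low. Both Low libraries were below the other 4, with a log2 fold change for Low against High of −1.35 ± 0.45 (unadjusted p 0.013 in edgeR). Eif3a, the largest subunit and a scaffold of the complex, was at 631 and 917 CPM in High, 495 and 713 CPM in Medium and 387 and 529 CPM in Low. Low lay below High, with a log2 fold change of −0.76 ± 0.33 (unadjusted p 0.047). Eif3c, the other scaffold, was below High in each of the 4 libraries (379 and 458 CPM against 311 to 370 CPM), and Eif3b was above it in each (83.2 and 70.1 CPM against 93.5 to 113 CPM). Their log2 fold changes of −0.29 ± 0.29 and 0.41 ± 0.74 were close to or below 1 SE.

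The other eIF3 genes overlapped with High when Low and Medium were pooled. Eif3d was at 529 and 273 CPM in High and 375 to 604 CPM elsewhere, with a log2 fold change of 0.30 ± 0.35. Eif3e, Eif3g, Eif3m, Eif3h, Eif3i and Eif3l had log2 fold changes from −0.39 to 0.56, none past 1 SE. In single films, Low lay below High for Eif3g (299 and 274 CPM against 111 and 200 CPM, log2 fold change −0.88 ± 0.49) and above it for Eif3e (0.30 ± 0.40) and Eif3m (0.48 ± 0.50), and Low lay below Medium for Eif3g (−0.98 ± 0.49) and Eif3l (−1.19 ± 0.71). Eif3k, the smallest subunit, had 32.1 and 70.6 CPM in High, 222 and 189 CPM in Medium, and 32.0 and 229 CPM in Low, so 1 Low library was at the High level and 1 at the Medium level. Both Medium libraries were above High, with a log2 fold change of 2.0 ± 0.94. Over the 13 subunits the summed level was 3768 ± 187 CPM on the High film, 3468 ± 377 on Medium and 3065 ± 490 on Low. On this TMM scale both Low libraries (2718 and 3411 CPM) were below both High libraries (3636 and 3900 CPM), while Medium overlapped with High.

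eIF2 has an α, a β and a γ subunit, encoded by Eif2s1, Eif2s2 and Eif2s3x. Eif2s2 had the highest counts of the family, at 3214 and 3019 CPM in High, 2040 and 2887 CPM in Medium and 2317 and 2872 CPM in Low. Eif2s1, whose product is phosphorylated by the Eif2ak kinases in the integrated stress response, was at 161 and 185 CPM in High, 424 and 222 CPM in Medium and 207 and 507 CPM in Low. The 4 libraries of lower conductivity were below High for Eif2s2 and above High for Eif2s1, with log2 fold changes of −0.30 ± 0.20 and 0.98 ± 0.47 and an adjusted p of 0.80 for each in edgeR.

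The sign for Eif2s2 turned with library sizes alone, to 0.08, while Eif2s1 stayed above High. Within a library, which needs no scaling, the ratio of Eif2s2 to Eif2s1 counts was 20 and 16.3 on the High film, 4.81 and 12.98 on Medium and 11.2 and 5.66 on Low. This pair was chosen after the values were seen, and since Eif2s2 lay below High and Eif2s1 above it, lower ratios on the other films restate those separations. Within Medium and within Low the ratios differed by more than they did within High. Eif2s3x was at 66.1 to 382 CPM with overlap. Eif2s3y, its counterpart on the Y chromosome, had 170 and 0 counts on the High film, 0 and 196 on Medium and 210 and 310 on Low, so that 1 High and 1 Medium library had none.

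eIF2B, which recycles eIF2 by exchanging its GDP, is encoded by 5 genes. Eif2b2 was at 129 and 128 CPM in High, 78.6 and 102 CPM in Medium and 38.4 and 72.8 CPM in Low, below High in each of the 4 libraries, with a log2 fold change of −0.86 ± 0.74. Eif2b4 was at 84.1 and 85.9 CPM in High, 0 and 44.3 CPM in Medium and 148 and 46.2 CPM in Low. Eif2b5, the catalytic subunit, was at 10.1 and 0 CPM in High, 0 and 65.0 CPM in Medium and 49.0 and 49.5 CPM in Low. Eif2b3 ran from 22.3 to 57.5 CPM and Eif2b1 from 4.81 to 71.3 CPM, with overlap when Low and Medium were pooled. A library with 0 counts beside a replicate with 50 or more was found in some film for 7.14% of the members (Eif2b5, Eif4e3, Eif2b4 and Eif2s3y), beside 38.9% of all rows tested. Eif2b4 was the one of these with a mean between 50 and 100 CPM, a level at which 18.6% of all rows had a 0 in at least 1 library, beside 78.6% below 50 CPM.

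The factors of scanning, start codon selection and subunit joining gave 0 genes of 9 that lay apart between High and the 4 other libraries, beside 18.2% of all rows tested. Eif1, which keeps scanning accurate, was at 333 and 434 CPM in High, 249 and 453 CPM in Medium and 348 and 418 CPM in Low. Eif5, the GTPase activator of eIF2, was at 374 and 395 CPM in High, 455 and 376 CPM in Medium and 262 and 389 CPM in Low, and Eif5b, which joins the subunits, ran from 148 to 215 CPM. These overlapped with log2 fold changes between −0.07 and 0.21. Eif1b was at 271 and 130 CPM in High, 73.8 and 61.2 CPM in Medium and 166 and 92.2 CPM in Low, with a log2 fold change for Medium against High of −1.57 ± 0.71. Eif1ax was at 70.0 and 90.7 CPM in High, 95.4 and 71.5 CPM in Medium and 11.3 and 36.8 CPM in Low, and Eif6, which keeps the large subunit from joining too early, at 117 and 80.2, 110 and 103, and 51.4 and 15.3 CPM. For both, Low lay below the 4 other libraries, with log2 fold changes for Low against High of −1.74 ± 1.27 and −1.56 ± 1.06.

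Eif2d and Eef2kmt each went opposite ways in Medium and Low. Eif2d, which works in reinitiation and ribosome recycling, was at 36.5 and 37.0 CPM in High, 161 and 107 CPM in Medium and 12.9 and 12.9 CPM in Low. Eef2kmt, a methyltransferase of eEF2, was at 23.5 and 36.3 CPM in High, at 0 in both Medium libraries, and at 42.9 and 61.6 CPM in Low. Among all rows tested, 0.660% had Medium above and Low below both High libraries, and 0.673% the reverse, each beside 1 of 56 members. Against a floor of 3 counts, Eef2kmt was at least 59.3-fold lower in Medium than in High and at least 104-fold lower than in Low. The test of Low against Medium gave an unadjusted p of 0.029 for Eif2d and 0.015 for Eef2kmt, with an adjusted p of 1 for each in edgeR.

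The remaining genes overlapped between High and the 4 other libraries as a pool. Eif4a3, a core protein of the exon junction complex, ran from 147 to 370 CPM, and Eef1e1, a scaffold of the aminoacyl-tRNA synthetase complex, from 37.9 to 134 CPM. Eif1ad ran from 15.1 to 115 CPM and Eif4enif1, which carries eIF4E into the nucleus, from 7.24 to 68.9 CPM. Eif2a, which can bring initiator tRNA without eIF2, ran from 23.3 to 188 CPM, and Eif1a from 25.1 to 82.2 CPM. Eif4e3 was at 103 and 0 CPM in High, 80.5 and 20.8 CPM in Medium and 17.8 and 53.7 CPM in Low.

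Over the whole family, 12 of 56 tested genes, or 21.4%, had their 4 Medium and Low values all above or all below both High values, beside 18.2% of all rows tested. Of the 12, 4 lay above High (7.14% beside 8.06%), namely Eif2s1, Eef1d, Eef1b2 and Eif3b. The other 8 lay below it (14.3% beside 10.1%), namely Eif3f, Eif3c, Eif4g2, Eif5a, Eif5a2, Eif2s2, Eif2b2 and Eefsec. With library sizes alone the split was 12 above (beside 14% of all rows) and 2 below (beside 6.15%). Eif2s1, Eef1d, Eef1b2 and Eif3b were above High and Eif3f and Eefsec below it under both scalings, and TMM without the ribosomal RNA rows gave 4 above and 8 below. For Eefsec this was fixed in advance, since its 4 Medium and Low values were 0 counts, which no scaling can move. It also passed the filter on counts through its High libraries alone. With 2 libraries against 2, Low lay apart from High in 26 of 56 members (12 above, 14 below), or 46.4% beside 37.4% of all rows (19.4% above, 18.0% below). Medium lay apart from High in 22 (9 above, 13 below), or 39.3% beside 34.8% (16.2% and 18.6%). Low lay apart from Medium in 20 (11 above, 9 below), or 35.7% beside 29.0% (16.3% and 12.6%). The median log2 fold change of all rows tested was −0.10 with TMM and 0.28 with library sizes alone, and 17 of the 56 members, Eef1a1 and Eif4a1 among them, went from below 0 to above 0.

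Set against each other, the 3 roles gave no difference larger than the spread between replicates. The median log2 fold change for Low and Medium against High, with each library raised to at least 3 counts, was −0.06 over 40 initiation genes (18 above 0, 22 below). It was −0.19 over the 6 tested elongation genes (2 above, 4 below) and −0.49 over the 3 inhibitors (0 above, 3 below), beside −0.10 over all rows tested. The inhibitor median is the value of Eif4ebp3 and moved to −0.17 with a floor of 10 counts. The SD between replicates of the median level within a role was 0.18, 0.22 and 1.96 on the log2 scale. Initiation genes summed to 12109 ± 62.2 CPM on the High film, 11130 ± 1141 on Medium and 11146 ± 1206 on Low, and on this TMM scale all 4 libraries of lower conductivity were below both High libraries (12065 and 12153 CPM against 10293 to 11999 CPM). Of these sums Eif2s2 alone held 3214 and 3019 CPM in High and 2040 to 2887 CPM elsewhere. Without Eif2s2 both Medium and Low overlapped with High. Elongation genes summed to 4393 ± 521, 4527 ± 62.5 and 4557 ± 440 CPM, and the inhibitors to 428 ± 121, 405 ± 58.1 and 310 ± 213 CPM.

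**Figure D3:**
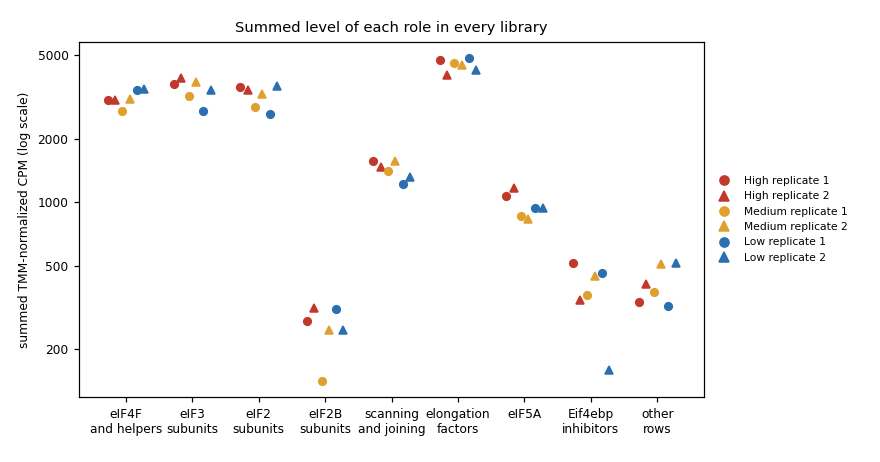
Summed TMM-normalized CPM of the genes of each role in the 6 libraries, on a log axis (red, High; orange, Medium; blue, Low; circles, replicate 1; triangles, replicate 2). The libraries of a role mostly lie within a narrow band, apart from eIF2B in Medium replicate 1 (141 CPM) and the Eif4ebp inhibitors in Low replicate 2 (159 CPM).

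The ratio of summed elongation to summed initiation genes was 0.395 and 0.331 on the High film, 0.443 and 0.376 on Medium and 0.473 and 0.354 on Low. The films overlapped. The log2 ratio of the mean in Medium and Low to that in High was 0.18, beside an SD of 0.22 between replicates of a film. The 9 TOP genes summed to 5869 and 5206 CPM in High, 5547 and 5354 CPM in Medium and 6144 and 5367 CPM in Low, also with overlap. Their median log2 fold change was 0.07, with 5 of 9 above 0, and that of 97 rows for ribosomal proteins, the other large group of TOP mRNAs, was 0.07 with 61 above 0. Over all rows tested the median was −0.10, with 3581 of 7729 above 0.

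**Figure D4:**
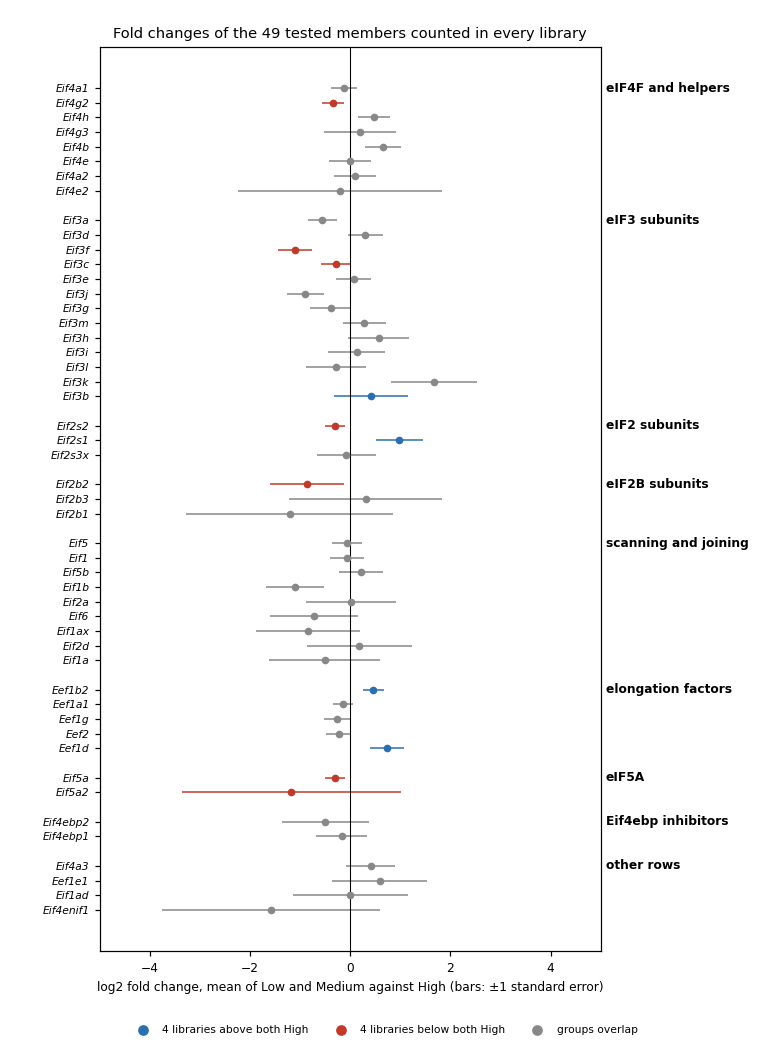
Log2 fold change for Low and Medium against High with its standard error (bars, ±1 SE, from the edgeR fit to 6 libraries) for the 49 tested genes with a count in every library, grouped by role (blue, all 4 Medium and Low libraries above both High libraries; red, all 4 below; grey, overlap). Eif3f at −1.11, Eif2s1 at 0.98, Eef1d at 0.73 and Eef1b2 at 0.46 are among the coloured points whose bars do not reach 0, and the bars of most grey points reach it.

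Agreement between replicates rose with the level of the gene over all rows tested. Among members the bin of 100 to 200 CPM broke this order, with less agreement than that of 50 to 100 CPM. All 9 members with a mean above 500 CPM stayed within 2-fold between the replicates of each film, beside 88.0% of all rows at that level. Of members at 200 to 500 CPM 13 of 17 did so (61.4% of all rows), at 100 to 200 CPM 2 of 9 (27.2%), at 50 to 100 CPM 4 of 10 (10.5%) and below 50 CPM 1 of 11 (3.52%). In total 29 of the 56 tested members were within 2-fold in every film. Eif4g3, in the bin of 200 to 500 CPM, had 1 Medium replicate 12.04-fold below the other, and Eif4ebp2, in the bin of 100 to 200 CPM, had 1 Low replicate 25.8-fold below the other.

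**Figure D5:**
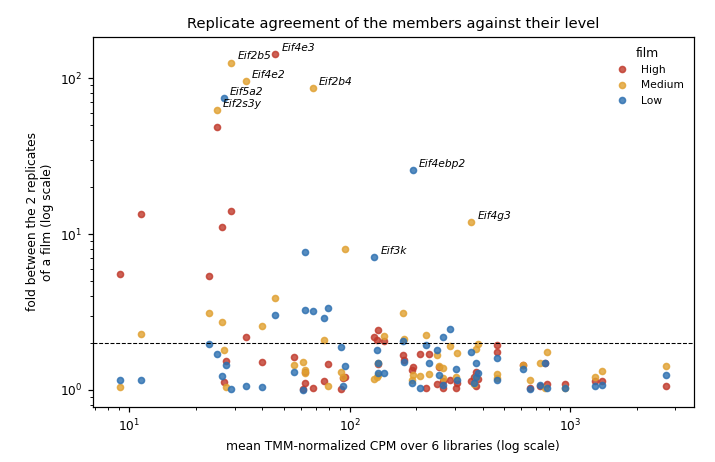
Fold between the 2 replicates of each film (vertical, log axis, each library raised to at least 3 counts) against the mean TMM-normalized CPM over 6 libraries (horizontal, log axis) for the 56 tested genes, 1 point per gene and film; the dashed line marks 2-fold. Above 500 CPM all points are under the line, and the named genes are among those furthest above it.

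Outside the family, 43 genes that control these factors (phosphatases, mTOR pathway genes, reinitiation and termination factors, the Eif2ak kinases) gave 41 tested rows, of which 0 passed the test. At an unadjusted p below 0.05 for Low and Medium against High there were 8 of 41 in edgeR, beside 5.50% of all rows. Ppp1r15a, Gnb2l1, Tpt1, Pelo, Rheb and Sesn2 were lower, and Denr and Mcts1 were higher. Pelo had 0 counts in both Medium libraries, but its Low libraries (122 and 27.4 CPM) lay on either side of High (96.2 and 95.7 CPM). The median log2 fold change was −0.35 (15 above 0, 26 below), beside −0.10 over all rows. Of the 41 rows 2 had all 4 libraries above High and 9 below it, beside 8.06% and 10.1% of all rows. The list was chosen with earlier results of these data known, and the paper names Ppp1r15a among genes higher on High. These counts therefore describe the list and do not test whether such genes changed more than others.

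Denr and Mcts1 encode a pair of proteins that act in reinitiation, as Eif2d does in a single chain. Denr was at 52.3 and 88.0 CPM in High, 201 and 217 CPM in Medium and 310 and 124 CPM in Low, with a log2 fold change of 1.60 ± 0.58. Mcts1 was at 15.2 and 0 CPM in High, 439 and 159 CPM in Medium and 75.9 and 75.9 CPM in Low, with a log2 fold change of 4.30 ± 1.49. Both were above High in each of the 4 libraries, with an adjusted p of 0.80 and 0.78 in edgeR.

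Among the regulators with lower values, Ppp1r15a, the subunit that directs dephosphorylation of eIF2α, was at 249 and 221 CPM in High, 0 and 62.0 CPM in Medium and 26.2 and 10.4 CPM in Low. Sesn2, a stress-induced inhibitor of mTOR signalling, was at 189 and 423 CPM in High, 111 and 63.6 CPM in Medium and 0 and 10.2 CPM in Low. Rheb, the GTPase that activates mTOR, was at 290 and 398 CPM in High, 54.6 and 195 CPM in Medium and 112 and 172 CPM in Low. All 3 were below High in each library of lower conductivity, with log2 fold changes of −3.30 ± 1.45, −3.86 ± 1.16 and −1.37 ± 0.53 and adjusted p values of 0.80, 0.61 and 0.80 in edgeR. Akt1s1, Etf1, Abcf1, Eif2ak4, Gnb2l1 and Tpt1 also lay below High in all 4, with log2 fold changes from −2.36 to −0.69. Pabpc1, the poly(A)-binding partner of eIF4G, overlapped (816 to 1507 CPM), as did Atf4 (136 to 453 CPM), whose mRNA is translated when eIF2α is phosphorylated, and Pdcd4, an inhibitor of Eif4a1 (0 to 33.4 CPM).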

How the data were processed

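Per the methods and labels, libraries were made with a QuantSeq 3′ kit, single reads were aligned by Bowtie2, and bedtools counted the alignments of each gene, multiple ones included. The processing notes name the build rn6. The labels name Trizol and the methods a column kit for RNA isolation. The authors deposited whole-number counts per gene, 1 table per library, with 17048 rows (16881 symbols). From these counts, rows were filtered with filterByExpr (7729 kept), normalized with TMM, and tested with the edgeR quasi-likelihood test (R 4.3.3, edgeR 4.0.16, limma 3.58.1, DESeq2 1.42.0) in one fit of 3 film means, with Benjamini-Hochberg adjustment over all rows and a threshold of 0.05. The common dispersion was 2.04, with 6.96 prior and 3 residual degrees of freedom. Counts are not divided by gene length, PCR duplicates cannot be told from molecules, and strand was not stated to be used. Total counts per library were 5124863 to 6213676. Values at or below 3 counts in a whole film were treated as a floor of 3 counts per library, and each film was represented by its 2 libraries as labelled.

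Genes named in full were the markers Eef1a1 and Eif4a1, every Eif4ebp row, paralog pairs, the 12 genes with the highest mean level, up to 6 per direction with the largest fold change among those whose films did not overlap, and up to 3 with 0 counts in 1 library. Other members were named to account for the family or, like Eif2d, Eef2kmt and Eif3j, after their values were seen. The members and lists were chosen with earlier results of these data known. The model was checked on simulated counts. Alternatives were DESeq2, limma-voom, other scalings, other filters, a replicate block and leaving out each library. Same-numbered replicates did not deviate together (correlations over 56 members between −0.21 and 0.02), so the numbers were not taken to pair the libraries. Replicates of a film differed by far more than counting noise (chi-square over degrees of freedom 138 to 178), so none was a repeat deposit. Sequences were matched to RefSeq (57 symbols directly, 58 with synonyms, and 51 with a promoter entry).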

Additional observations from a re-analysis of the deposited data

Results flagged for a closer look

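Eif2d and Eef2kmt stood out because both Medium libraries lay on one side of both High libraries and both Low libraries on the other. For Eif2d the log2 fold change of Low against Medium was −3.37, with an unadjusted p of 0.029 and an adjusted p of 1 in edgeR. For Eef2kmt, which had 0 counts in both Medium libraries, the fitted value was 11.2, with an unadjusted p of 0.015 and an adjusted p of 1, and this fitted value depends on the prior count, the bound being 104-fold. DESeq2 called both genes for Low against Medium, and limma-voom called neither.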

How the results depend on the processing

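No member passed the adjusted threshold under limma-voom, other scalings, other filters or the replicate block, in any of the 4 comparisons. The replicate block gave 0 calls in each, with 4, 3, 4 and 3 of 56 members at an unadjusted p below 0.05 (5.42%, 4.45%, 4.68% and 1.67% of all rows). DESeq2 called 1 (Low and Medium against High), 1 (Low against High), 2 (Medium against High) and 2 (Low against Medium). Leaving out each library in turn gave 0 to 2, 0 to 1, 0 to 3 and 0 to 2 calls, where a lone library is assumed to vary like the other films. Those calls were Eif3f, Eif4g3 and Eif2b4 without Medium replicate 2, where calls over all rows also rose (2.79%, 0.219%, 3.17% and 2.24% of rows), and Eif4ebp2 without Low replicate 1 (0.689% and 0.373% in the first 2 comparisons). Eif2b4 then had a log2 fold change of −5.85 (adjusted p 0.018 in edgeR).

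The counts of members whose films did not overlap were recomputed after seeing the data. With library sizes alone they were 12 above and 2 below High, in place of 4 and 8. Leaving out each library gave 5 to 9 above and 8 to 17 below, beside 10.2% to 17.0% and 12.6% to 23.1% of all rows, the highest member counts being without High replicate 2. The medians with library sizes alone were 0.34 for initiation and 0.20 for elongation genes and −0.11 for the inhibitors, a shift shared with all rows tested (from −0.10 to 0.28). With TMM and a floor of 10 counts the median of the inhibitors was −0.17. Leaving out each library gave −0.28 to 0.0377 for initiation, −0.25 to 0.003 for elongation and −0.73 to 0.19 for the inhibitors, and 0.06 to 0.31 for the log2 ratio of elongation to initiation. The sign turned with library sizes alone for 17 of 56 members, of which those past 1 SE with TMM and named in full were Eif4g2 (0.0547), Eif5a (0.0928) and Eif2s2 (0.0844), and it turned for Eif4ebp3 with limma-voom (0.43) and without High replicate 1 (5.20, the highest value when each library was left out, the lowest being −3.63 without High replicate 2). The cause was not tested. Depth limits the low genes, since 3 counts were 0.435 to 0.716 CPM and 7 of the 56 tested genes had 0 counts in at least 1 library.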
